A study of Mus musculus with 8 samples.

Results

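The 52 genes described here encode the kinases, spindle, kinetochore and cytokinesis proteins of mitosis. They were taken by symbol from a list of G2/M genes, by a rule that uses no measured value but was set with earlier results of these data known, and all 52 are among the 34478 genes of the deposited table. RNA was sequenced from 4 cell lines, numbered #1, #3, #5 and #10, each established from pancreatic ductal adenocarcinoma (PDAC) of a genetically engineered mouse. The mice of all lines, and so of both groups, carried, among their engineered alleles, Ptf1awt/Cre and Trp53loxP/loxP, in which a Cre recombinase driven from the pancreatic Ptf1a locus deletes Trp53. Each line gave 1 library with the solvent DMSO and 1 library after 48 h of trametinib, an inhibitor of the kinase MEK, at the IC50 of that line. The dose per line is not given in the sources used here, and neither is the age of the mice. With 1 library per line and treatment, the main tests rest on how the change with trametinib differed between the 4 lines. The spread of that change is moderated by the spread in other genes.

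Entry into mitosis is driven by CDK1 with cyclins A and B, which Polo-like and Aurora kinases help to activate. Condensins compact the chromosomes, kinetochores tie them to the microtubules of the spindle, and the spindle assembly checkpoint holds back the anaphase-promoting complex until every chromosome is attached. The genes of this machinery are known to be transcribed in late S phase, G2 and mitosis by the MuvB complex with B-Myb and FOXM1 and by NF-Y, so that their mRNA marks proliferating cells. In pancreatic cancer, the MEK to ERK kinase cascade is known as a main signal for entry into the cell cycle.

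With trametinib, 51 of the 52 genes fell. The log2 fold change of the genes that fell ran from -1.82 for Kif23, a kinesin of the central spindle, to -0.68 for Bub3, a checkpoint protein, and its median over the 52 genes was -1.28. The gene that did not pass the test was Pttg1, which encodes securin, the inhibitor of separase. Of these genes 98.1% passed limma as lower, at a threshold of 0.05 on the adjusted p, against a background of 25.6% of the 15888 genes tested. Since the genes were chosen with earlier results known, these shares are given as a description. None was higher, either at an adjusted or at an unadjusted p under 0.05, while 27.3% of all genes tested were higher. For 50 of the 52 genes every trametinib library lay below every DMSO library, which held for 16.2% of all genes tested. The exceptions were Pttg1 and Prc1. Without the cell line as a block, 47 of the 52 genes were lower, and Bub3, Kif4, Kif20a and Prc1 did not pass. All 52 genes passed the filter, a mean of at least 10 normalized counts, with means from 558 for Pttg1 to 18386 for Top2a. In RNA from whole cultures, fewer cells in G2 and mitosis and less of these mRNAs per cell cannot be told apart.

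The size of the fall differed between the lines. The median log2 fold change of the 52 genes was -1.10 in line #1, -2.15 in line #3, -0.73 in line #5 and -1.14 in line #10, with a mean of -1.28 ± 0.61 (SD, n = 4 lines). Within a line, the SD over the 51 genes that fell was 0.21 to 0.35. Without line #3 the line medians had a mean of -0.99 ± 0.23 (SD, n = 3 lines). Leaving Pttg1 aside, the median gene kept 46.5% of its DMSO level in line #1, 22.3% in line #3, 60.0% in line #5 and 45.3% in line #10. All 51 genes fell most steeply in line #3, and 46 of them fell least in line #5, the other 5 in line #1. The normalized counts of the 52 genes together made up 0.897%, 0.866%, 0.890% and 0.923% of the DMSO libraries of lines #1, #3, #5 and #10. With trametinib their share was 0.445%, 0.216%, 0.586% and 0.466%. The lines thus started from nearly equal shares and ended apart. Gene by gene, the DMSO levels of the highest and the lowest line differed by a median of 1.35-fold, and the trametinib levels by 2.87-fold. Line #3 had the lowest trametinib level for 51 of the 52 genes, and without it these folds were 1.22 and 1.40.

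**Figure D1:**
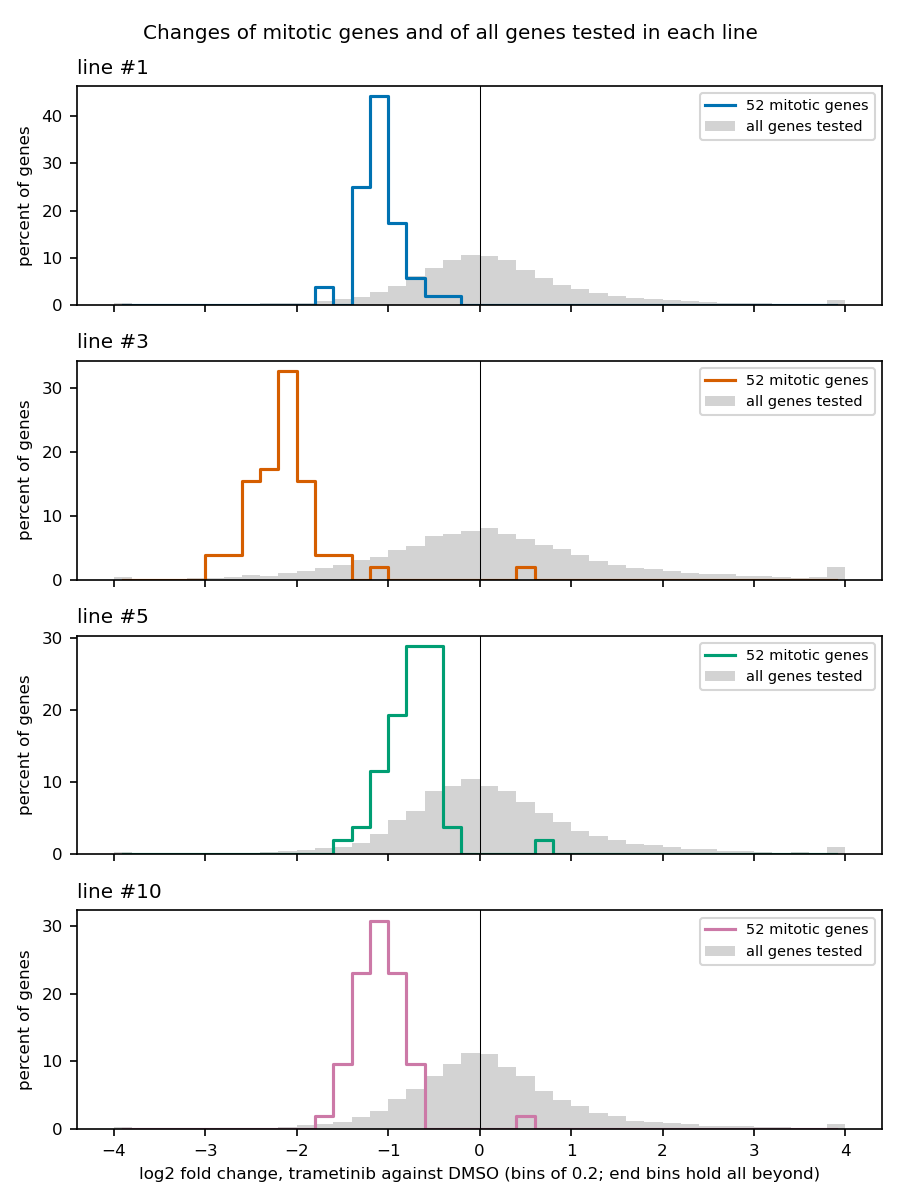
Percent of genes (vertical axis) per bin of log2 fold change, trametinib against DMSO (horizontal axis), for the 52 mitotic genes (line) and all 15888 genes tested (grey), in each of the 4 PDAC lines. The mitotic genes sit left of 0, apart from Pttg1 in lines #3, #5 and #10, farthest in line #3 (median -2.15) and nearest in line #5 (median -0.73).

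Line #3 also had the widest changes over all genes tested. The SD of the log2 fold change over those genes was 1.40 in line #3, 1.12 in line #1, 1.15 in line #5 and 1.05 in line #10, while their median was 0.06, 0.05, 0.03 and 0.04. Without line #3, the same 51 genes were lower in limma and the median over the 52 genes was -1.0. A fall of more than 2-fold in each of the 4 lines was seen for 9 genes (17.3%), against 3.35% of all genes tested. These were Ccna2, Cdc25b, Aurkb, Birc5, Cdc20, Ube2c, Cenpa, Spc24 and Kif23. All 51 genes were lower in each line, against 30.9% of all genes tested. When the test itself required more than a 2-fold change, only Kif23 was called, against 1.11% of all genes tested. The order of the genes was partly shared between lines. Birc5 and Kif23 were among the 10 steepest in each line, and Bub3, Foxm1 and Prc1 among the 10 shallowest. Across the 51 genes, Pearson's r between the log2 fold changes of 2 lines ran from 0.60 to 0.75, a description over genes, which are not independent replicates.

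**Figure D2:**
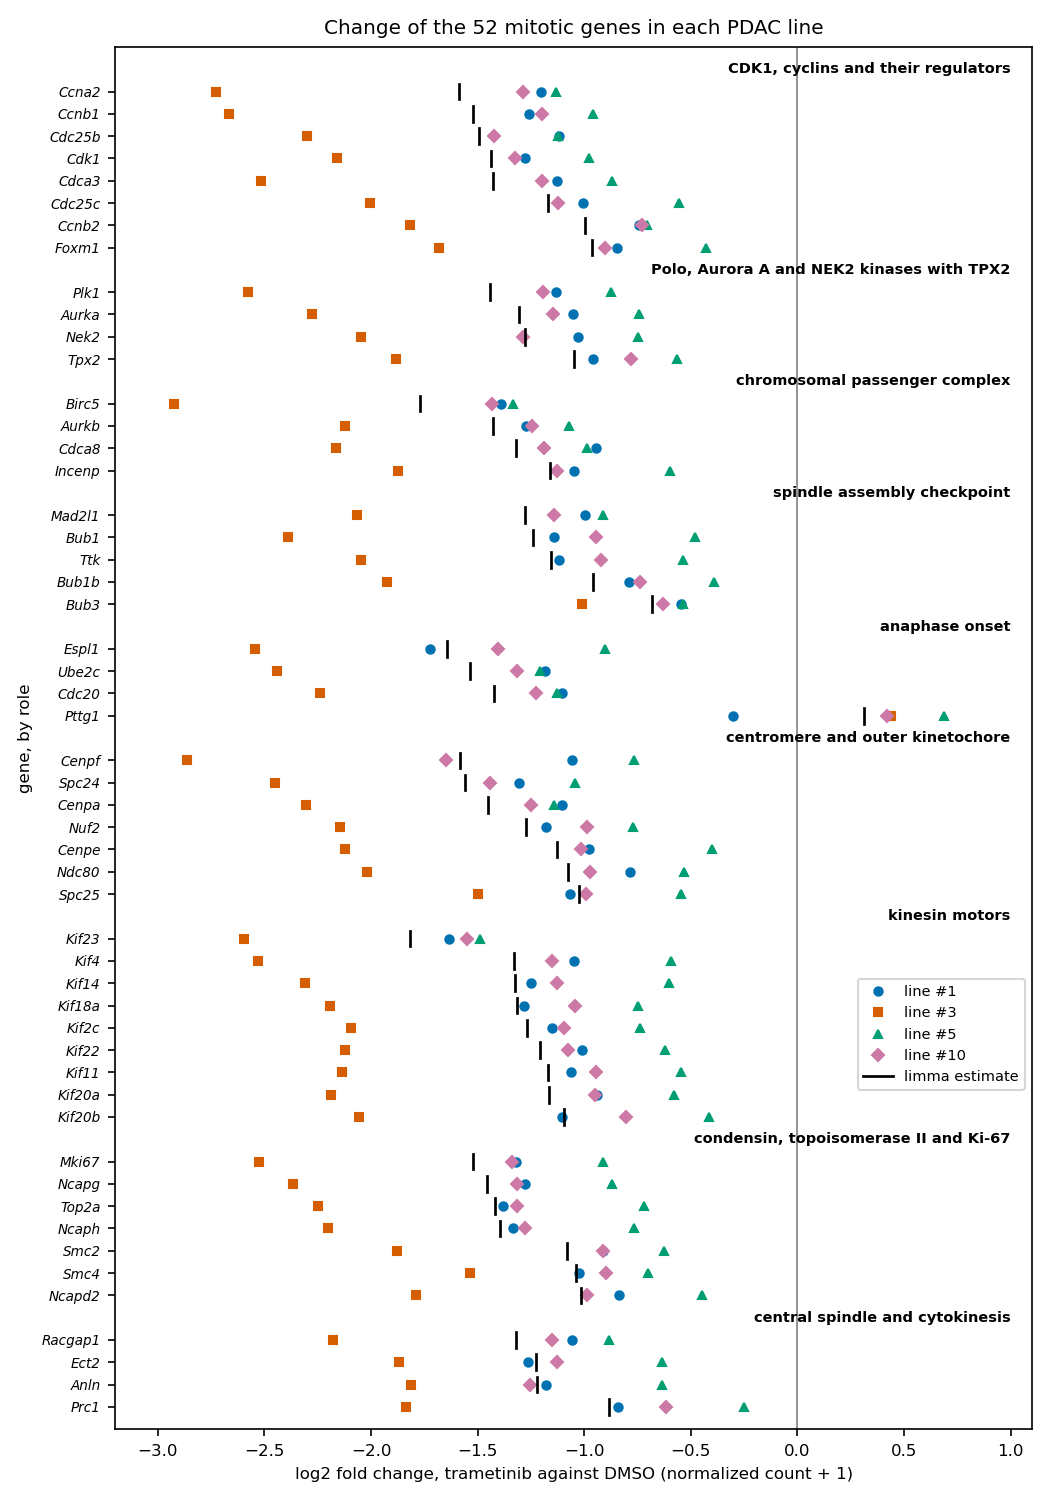
Log2 fold change, trametinib against DMSO (horizontal axis), of each of the 52 genes (rows, by role) in each of the 4 lines (symbols), with the limma estimate as a bar. Line #3 is farthest to the left for all genes but Pttg1, which lies at -0.30 in line #1 and right of 0 in the other lines.

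The promoters of these genes were searched for the DNA elements known from G2/M genes, the class from which the list was taken. The shares below thus describe the list, and the part of these elements in the fall was not tested. The windows were the 300 bases from 250 before to 50 after the start of transcription in RefSeq (GRCm38.p6), of which 46 windows belonged to 43 of the 52 genes. The other 9 genes had no entry. The cell cycle genes homology region (CHR), through which MuvB is known to bind, was searched as TTTGAA or TTCGAA on both strands, and the CCAAT box, known as the site of NF-Y, as CCAAT on both strands. A CHR was found in 80.4% of the 46 windows, against 14.3% of the windows of genes tested and 19.2% of all windows of that length. The CCAAT box was found in 78.3%, against 37.8% and 37.4%, and the pair of elements in 71.7%, against 5.89% and 7.52%. A CHR between 50 bases before and 50 after the start was held by 69.6% of the windows, against 3.63% and 5.31%. The letters of E2F sites (TTCCCGC or TTGGCGC or TTGCCGC or TTCGCGC, both strands) were found in 19.6%, against 15.8% and 9.57%. Of 122 windows of other mitotic genes, 41.0% held a CHR, 55.7% a CCAAT box, 26.2% the pair and 29.5% a CHR near the start, each below the share of the 52 genes and above that of the genes tested. They held the E2F letters in 28.7%, above the share of the 52 genes. Windows of DNA replication genes held the E2F letters in 64.7% and a CHR in 26.5%. These matches are letters in a window and no measurement of binding.

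The following stretches come from the gene with the lowest log2 fold change in each role among those with both elements, and show how the CCAAT box lies before the CHR. They are written 5′ to 3′ on the strand of the gene, from RefSeq on GRCm38.p6, with the CHR (TTTGAA or TTCGAA) and the CCAAT box (also read as ATTGG) in capitals. In Cdca8 the letters of a second CCAAT box run on from the CHR and overlap it. The Plk1 CHR lies further behind the start than the others shown and is given as a run of its own. Those of Cdc25b, Cdca8, Bub1, Cenpf, Kif23 and Racgap1 also begin behind the start.
Cdc25b, chr2:131186900-131186970, plus strand: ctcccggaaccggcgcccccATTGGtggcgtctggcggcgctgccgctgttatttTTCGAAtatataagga
Plk1, chr7:122159401-122159434, plus strand: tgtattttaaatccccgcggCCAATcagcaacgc
Plk1, chr7:122159455-122159480, plus strand: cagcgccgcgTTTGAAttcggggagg
Cdca8, chr4:124936889-124936948, minus strand: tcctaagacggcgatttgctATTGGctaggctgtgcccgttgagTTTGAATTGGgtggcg
Bub1, chr2:127831830-127831921, minus strand: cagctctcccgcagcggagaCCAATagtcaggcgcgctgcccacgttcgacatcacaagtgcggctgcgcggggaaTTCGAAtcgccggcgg
Espl1, chr15:102296229-102296281, plus strand: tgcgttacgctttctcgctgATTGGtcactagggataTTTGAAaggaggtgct
Cenpf, chr1:189688069-189688177, minus strand: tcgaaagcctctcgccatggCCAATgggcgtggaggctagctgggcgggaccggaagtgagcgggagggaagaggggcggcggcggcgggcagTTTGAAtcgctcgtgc
Kif23, chr9:61946782-61946826, minus strand: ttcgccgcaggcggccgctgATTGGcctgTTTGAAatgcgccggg
Mki67, chr7:135716480-135716540, minus strand: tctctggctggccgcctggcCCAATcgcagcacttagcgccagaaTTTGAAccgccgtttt
Racgap1, chr15:99651636-99651688, minus strand: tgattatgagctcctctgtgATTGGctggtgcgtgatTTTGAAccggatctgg

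The stretch before the RefSeq start of Pttg1, the gene that did not fall, is also shown and was chosen after its values were seen. Its window held neither a CHR nor a CCAAT box. GENCODE M21 places the outer end of the gene further upstream, at 43426251 of chromosome 11, so the window does not cover every start. For 12 of the 43 genes, Pttg1, Cdca8 and Mad2l1 among them, the RefSeq start lay over 50 bases from the outer end in GENCODE.
Pttg1, chr11:43425982-43426081, minus strand: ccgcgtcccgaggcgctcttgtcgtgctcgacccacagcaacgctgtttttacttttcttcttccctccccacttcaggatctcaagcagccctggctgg

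**Figure D3:**
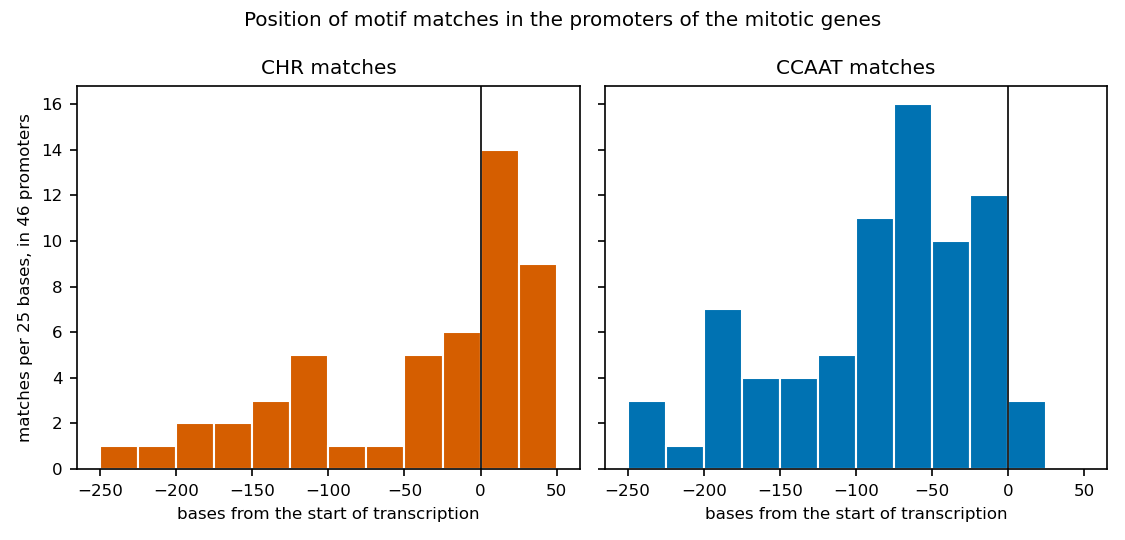
Number of matches per 25 bases (vertical axis) against distance from the start of transcription (horizontal axis) for the CHR and the CCAAT box in the 46 windows of the mitotic genes, where windows of 1 gene can overlap. Of 50 CHR matches, 34 begin from 50 bases before to 50 after the start, and of 76 CCAAT matches, 73 begin before it.

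The 34 genes with a CHR had a median log2 fold change of -1.31 and the 9 without, Pttg1 among them, had -1.28, values given without a test. Birc5, Kif18a, Mad2l1, Ncaph and Nuf2 also lacked the letters of both elements in their windows, and they fell. The window of Mad2l1 ends at 66535270 of chromosome 6, before the GENCODE start at 66535390. In 32 windows a CCAAT box stood before a CHR, with a median of 27 bases between the nearest pair, from 4, as in Kif23, to 148.

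Among CDK1, its cyclins and their regulators, 8 of 8 genes fell, with a median log2 fold change of -1.43. Ccna2 (chr3:36564865-36572150, minus strand) encodes cyclin A2, the partner of CDK2 and CDK1 in S phase and G2, and had the highest mean and the steepest fall of the group. It stood at 11354, 8902, 12179 and 11859 normalized counts in lines #1, #3, #5 and #10 with DMSO and at 4924, 1343, 5548 and 4855 with trametinib. The highest trametinib library, line #5, was well below the lowest DMSO library, line #3. Its log2 fold change was -1.59, with a standard error (SE) of 0.26 (adjusted p = 0.00291). Foxm1 (chr6:128362967-128376146, plus strand), a transcription factor of G2/M genes, fell least. Its counts were 7449.8, 7303, 8428 and 7397 with DMSO and 4139, 2279, 6259 and 3961 with trametinib, so that line #5 kept 74.3% of its level. The change of Foxm1 was -0.96 on the log2 scale (SE 0.19, adjusted p = 0.00551). Cdk1 itself changed by -1.44 and Ccnb1, the gene of cyclin B1, by -1.52. The phosphatase genes Cdc25b and Cdc25c, whose products remove the inhibitory phosphates of CDK1, changed by -1.49 and -1.17. Ccnb2 changed by -1.0 and Cdca3 by -1.43.

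The 4 genes of Polo-like kinase 1, Aurora A, NEK2 and TPX2, proteins of the centrosome and spindle poles, all fell, with a median of -1.29. Tpx2 (chr2:152847964-152895321, plus strand), which encodes the activator of Aurora A on spindle microtubules, had the highest mean and the smallest fall. Its DMSO libraries were at 8131, 6310.4, 7798 and 8976 and its trametinib libraries at 4186, 1711, 5269 and 5230.3 for lines #1, #3, #5 and #10. The groups did not overlap, although line #5 with trametinib came close to line #3 with DMSO. The log2 fold change was -1.05 (SE 0.21, adjusted p = 0.00573). Plk1 (chr7:122159439-122169873, plus strand), the kinase gene with the steepest fall of this group, went from 5024, 4165, 5634 and 4449 to 2294, 697, 3076 and 1943. Line #3 ended lowest, at 16.7% of its DMSO level. For Plk1 the log2 fold change was -1.44 (SE 0.27, adjusted p = 0.00436). Aurka changed by -1.30 and Nek2 by -1.28.

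All 4 genes of the chromosomal passenger complex fell, with a median of -1.37. In this complex Aurora B corrects wrong attachments at centromeres, and survivin, borealin and INCENP hold it in place. Birc5 (chr11:117849251-117855743, plus strand), the gene of survivin, had the second steepest fall of the 52 genes. DMSO libraries held 5340.3, 4808, 5938 and 5356 normalized counts and trametinib libraries 2039, 632, 2354 and 1984. Lines #1, #5 and #10 kept 38.2%, 39.6% and 37.0% of their level, nearly the same share, and line #3 kept 13.1%. In limma the log2 fold change of Birc5 was -1.77 (SE 0.27, adjusted p = 0.00203). Incenp (chr19:9872296-9899551, minus strand), the scaffold, had the highest mean and fell least. It stood at 8074, 7318, 7116 and 8459.6 with DMSO and at 3909, 1994, 4700.3 and 3875 with trametinib, with no overlap. The value of its change was -1.16 (SE 0.19, adjusted p = 0.00279). Aurkb changed by -1.43 and Cdca8, which encodes borealin, by -1.32.

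The spindle assembly checkpoint had the median nearest to 0 of the 9 roles, -1.16, with 5 of 5 genes lower. Bub3 (chr7:131560222-131571895, plus strand), which brings the BUB kinases to kinetochores, fell least of all lowered genes. It went from 5122, 3619, 5125 and 4151 normalized counts in lines #1, #3, #5 and #10 to 3509, 1794, 3530.4 and 2684. The highest trametinib libraries, lines #1 and #5, lay just below the DMSO library of line #3. Its change was -0.68, with a SE of 0.11 (adjusted p = 0.00221), the smallest SE of the 52 genes. Mad2l1 (chr6:66535390-66547220, plus strand), the gene of the checkpoint protein MAD2, fell most in this group. Its levels were 4999, 5056, 6491 and 4598 with DMSO and 2508, 1208, 3447 and 2081 with trametinib, apart in every line. The log2 fold change of Mad2l1 was -1.28 (SE 0.19, adjusted p = 0.00199). Bub1b (chr2:118598211-118641591, plus strand), the gene of BUBR1, had the highest mean, with 5215, 6144, 5619.6 and 6592 against 3018, 1619, 4284 and 3954. Line #5 kept 76.2% of its Bub1b level and line #3 kept 26.4%. For Bub1b the change was -0.96 (SE 0.23, adjusted p = 0.0131). The kinase genes Bub1 and Ttk changed by -1.24 and -1.16.

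Of the 4 genes of anaphase onset, 3 fell and Pttg1 did not pass the test. Espl1 (chr15:102296266-102324357, plus strand) encodes separase, the protease that cuts cohesin, and its product is held inactive by the product of Pttg1 (chr11:43420250-43426251, minus strand). Espl1 stood at 3752, 3487, 4083 and 3679.8 with DMSO and at 1136, 597, 2182 and 1388 with trametinib. Line #1 kept 30.3% of its level, lower than for any other of the 52 genes in that line. Its log2 fold change was -1.64 (SE 0.24, adjusted p = 0.00183). Pttg1 had 791, 472, 330.2 and 453 normalized counts with DMSO and 641, 639, 532 and 607 with trametinib in lines #1, #3, #5 and #10. It was lower in line #1, which had the highest DMSO level, and higher in the other lines, and the groups overlapped. The log2 fold change of Pttg1 was 0.31 (SE 0.18, adjusted p = 0.178 in limma). The DMSO levels of Pttg1 differed 2.40-fold between lines, the widest spread of the 52 genes, and its trametinib levels 1.20-fold, the narrowest. Without line #1, Pttg1 was called higher, with a change of 0.52 (adjusted p = 0.0366 in limma). Cdc20 (chr4:118432901-118437352, minus strand), the activator of the anaphase-promoting complex, had the highest mean of the group. It went from 6542, 5261, 6736 and 6135 to 3039.6, 1113, 3087 and 2622, and its change was -1.42 (SE 0.20, adjusted p = 0.00149). Ube2c, the ubiquitin-conjugating enzyme of that complex, changed by -1.54.

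**Figure D4:**
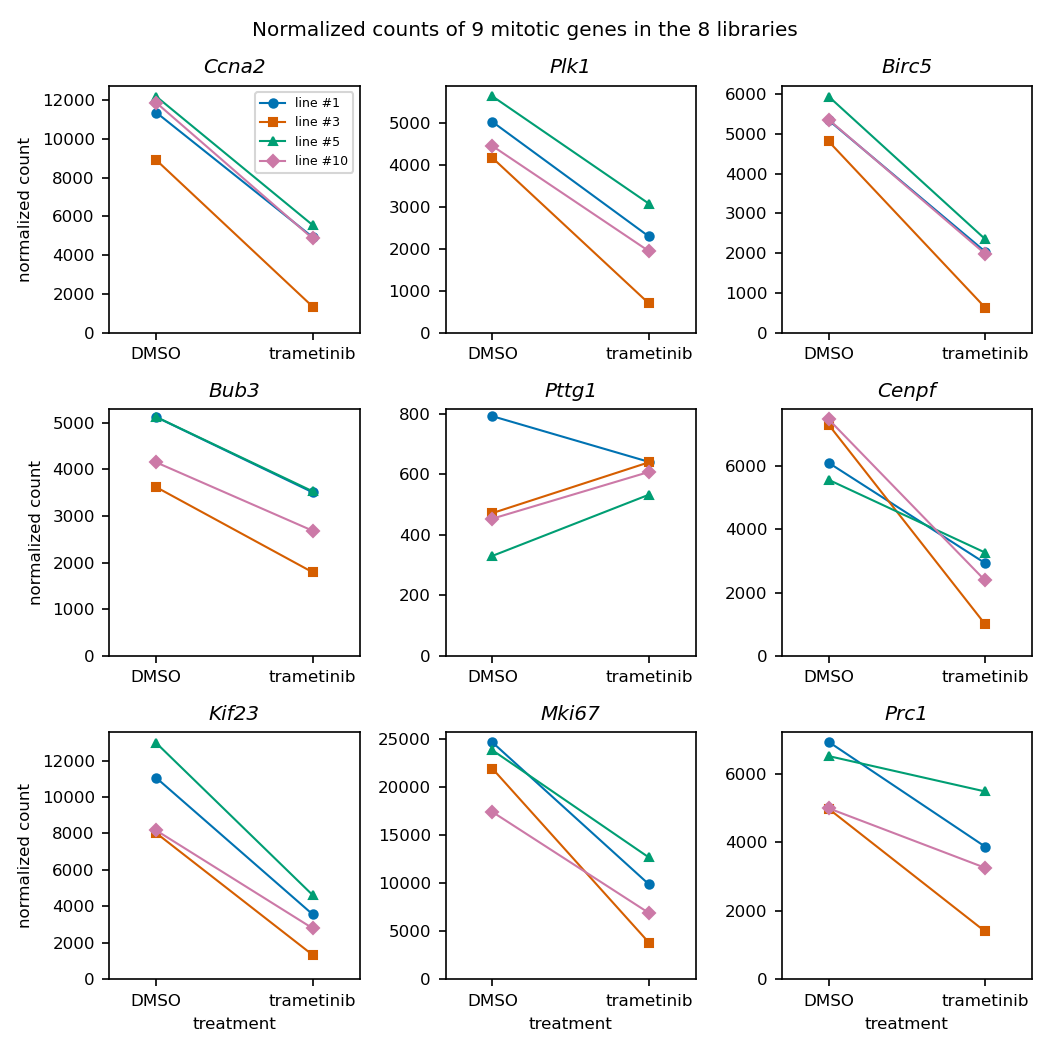
Normalized counts (vertical axis, from 0) of 9 genes with DMSO and with trametinib (horizontal axis), where each line joins the 2 libraries of a cell line. All genes shown fell in each cell line except Pttg1, which went from 791 to 641 in line #1 and was higher with trametinib in the other 3.

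At the centromere and the outer kinetochore, 7 of 7 genes fell, with a median of -1.27. Cenpf (chr1:189640606-189688086, minus strand), a large protein of the outer kinetochore, fell most. The DMSO libraries held 6099.5, 7302, 5562 and 7471 and the trametinib libraries 2930.3, 1002, 3264 and 2383, and line #3 kept 13.7%. Its log2 fold change was -1.58 (SE 0.32, adjusted p = 0.00606). Cenpe (chr3:135212537-135273611, plus strand), a kinetochore kinesin, had the highest mean, with 7775, 6214, 6386 and 7802 against 3952, 1426, 4838 and 3856. Line #5 kept 75.8% of it, more than the other lines. The change of Cenpe was -1.13 (SE 0.25, adjusted p = 0.00904). Among the 4 subunits of the NDC80 complex, which grips microtubules, Spc24 changed by -1.56, Nuf2 by -1.27 and Ndc80 by -1.08. Spc25 (chr2:69193895-69206194, minus strand) fell least, from 1491, 1363, 1476 and 1858 to 712, 482, 1011 and 934, a change of -1.03 (SE 0.16, adjusted p = 0.00205). No test compared these subunits. Cenpa, the histone H3 variant of centromeres, changed by -1.45.

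All 9 kinesin genes fell, with a median of -1.27. Kif23 (chr9:61915905-61946774, minus strand), which with the product of Racgap1 forms the centralspindlin complex, had the steepest fall of the 52 genes. It stood at 11049, 8015, 12960.2 and 8161 normalized counts with DMSO and at 3554, 1327, 4613 and 2789 with trametinib. Each line lost more than 2-fold, with log2 fold changes of -1.64, -2.59, -1.49 and -1.55. In limma the change was -1.82 (SE 0.19, adjusted p = 0.000625). Kif20a (chr18:34624613-34633277, plus strand), a kinesin of cytokinesis, had the highest mean. Its libraries held 7468, 7890.1, 9426 and 12526 with DMSO and 3893, 1728, 6309 and 6495 with trametinib, and line #10 was the highest in each group. The log2 fold change of Kif20a was -1.16 (SE 0.25, adjusted p = 0.00749). Kif20b (chr19:34922361-34975745, plus strand) fell least, from 4919, 5103, 4228 and 5910.4 to 2289.6, 1226, 3171 and 3389, with a change of -1.09 (SE 0.25, adjusted p = 0.00931). Kif11, the motor that pushes spindle poles apart, changed by -1.17. The chromosome-arm motors Kif4 and Kif22 changed by -1.33 and -1.21. The changes of Kif2c, which depolymerizes microtubules at centromeres, and of Kif18a, which limits chromosome oscillation, were -1.27 and -1.32. That of Kif14, a motor of cytokinesis, was -1.32.

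The 7 genes of condensin, topoisomerase II alpha and Ki-67 all fell, with a median of -1.40. Top2a (chr11:98992943-99024189, minus strand), which untangles sister chromatids, had the highest mean of the 52 genes. Its counts were 24578, 26455, 24453 and 29796 with DMSO and 9428, 5568, 14854 and 11953 with trametinib in lines #1, #3, #5 and #10. The log2 fold change of Top2a was -1.42 (SE 0.22, adjusted p = 0.00241). Mki67 (chr7:135689784-135716361, minus strand), the proliferation marker that coats mitotic chromosomes, fell most in this group. It went from 24658, 21923, 23842 and 17411 to 9880.2, 3808, 12676 and 6891, with line #5 highest and line #3 lowest after trametinib. Its change was -1.52 (SE 0.25, adjusted p = 0.00254). Ncapd2 (chr6:125168007-125191701, minus strand), a subunit of condensin I, fell least, from 11366, 13188, 13020.1 and 12548 to 6366, 3813, 9560.3 and 6329. It still fell in each line, with a limma estimate of -1.01 (SE 0.20, adjusted p = 0.00597). The core ATPases Smc2 and Smc4 changed by -1.08 and -1.04, and Ncapg and Ncaph of condensin I by -1.46 and -1.40.

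The 4 genes of the central spindle and cytokinesis fell, with a median of -1.22. Racgap1 (chr15:99620496-99651656, minus strand), the GTPase-activating partner of KIF23, fell most. Its levels were 9607, 7837, 10209.5 and 9446 with DMSO and 4621, 1728, 5523 and 4249.9 with trametinib, and the change was -1.32 (SE 0.21, adjusted p = 0.00239). Ect2 (chr3:27097222-27153878, minus strand), which activates RhoA at the cleavage furrow, had the highest mean, with 13846, 7737, 11507 and 11563 against 5762, 2118, 7396 and 5292. Its log2 fold change was -1.22 (SE 0.18, adjusted p = 0.002). Prc1 (chr7:80294450-80316259, plus strand), which bundles the microtubules of the central spindle, fell least. It stood at 6924, 4970.2, 6511 and 4986 with DMSO and 3867, 1391, 5478 and 3249 with trametinib, and the trametinib library of line #5 lay above the DMSO libraries of lines #3 and #10. The change of Prc1 was -0.89 (SE 0.24, adjusted p = 0.019 in limma), and it did not pass without line #1 (adjusted p = 0.0597 in limma). Anln, the gene of the furrow protein anillin, changed by -1.22.

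Levels were also divided by the merged length of all annotated exons of a gene. On this scale Cdc20 had the highest DMSO mean of the 52 genes, with 3302 normalized counts per kilobase. Top2a followed with 2920 and Ccna2 with 2712, and Kif18a was lowest, with 153. The merged length can exceed that of the mRNA made in these cells, so this order is no ranking of mRNA abundance. Some values rest on counts that may be shared with other genes. Of the 31-base words of their transcripts, 27.7% for Ccnb1, 25.5% for Cdc20 and 14.8% for Plk1 also occur in another annotated gene. For Ccnb1 and Plk1 these are the pseudogenes Ccnb1-ps and Plk-ps1, which reached at most 1.24 and 1.92 normalized counts in any library. The partner of Cdc20, Gm7856, was not analysed here. Exons of 3 genes, Foxm1, Ncapd2 and Top2a, overlap another gene on the same strand. Exons of 14 genes, Ccna2, Plk1, Cdc20, Kif20a and Prc1 among them, overlap a gene on the other strand, and whether counting used the strand is not stated.

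Beyond the 52 genes, 121 genes of mitosis were examined, of which 101 (83.5%) were lower, 2 higher (1.65%) and 18 not past the test, with a median of -0.93. Of all genes tested 25.6% were lower and 27.3% higher. Among 14 partners of the CDK1 switch, 12 were lower, from Pbk, a mitotic kinase, at -1.88 to Ensa, an inhibitor of PP2A, at -0.10 (adjusted p = 0.411). Of 18 inner kinetochore genes, 16 were lower, with Cenpm at -1.75 and Cenpc1 at -0.20 (adjusted p = 0.102) as the extremes. The outer kinetochore and checkpoint list had 17 of 18 genes lower, from Trip13, a remodeler of MAD2, at -1.88 to Dsn1, a MIS12 complex subunit, at -0.17 (adjusted p = 0.231). Genes of the spindle and cytokinesis were lower in 23 of 24 cases, from Sapcd2 at -1.63 to Numa1, which anchors spindle poles, at 0.10 (adjusted p = 0.351). These 4 lists had medians between -0.94 and -1.11.

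The anaphase-promoting complex list had 11 of 17 genes lower, 1 higher and a median of -0.36, beside a median of 0.07 over all genes tested. Its subunit gene Anapc2 stood at 3785, 3829, 3769 and 5139.9 with DMSO and 5168, 5043, 4209 and 6197 with trametinib, a change of 0.32 (SE 0.09, adjusted p = 0.019) with overlapping groups. The call on Anapc2 was lost when libraries were centred on their medians, with eBayes without trend, without the block, and without line #1 or line #10. Fbxo5, which encodes the inhibitor EMI1 of that complex, was the lowest of the list, at -1.78. Of 15 genes of condensin II and cohesin, 12 were lower with a median of -0.70, from Esco2, a cohesin acetyltransferase, at -1.66 to Nipbl, the cohesin loader, at 0.14 (adjusted p = 0.217). Among 15 genes of MuvB, B-Myb, NF-Y, the E2F and DP proteins and the pocket proteins, 10 were lower and 1 higher, with a median of -0.54. Mybl2, the gene of B-Myb, went from 4069, 4309, 4729.8 and 4523 to 1271, 636, 1622 and 1270.1, a change of -1.95 (SE 0.20, adjusted p = 0.000595). Rbl2, which encodes p130, the pocket protein that joins MuvB in resting cells, rose from 1042, 921, 695 and 817 to 1507, 1503, 1203 and 1255. Every trametinib library of Rbl2 was above every DMSO library, and its change was 0.66 (SE 0.09, adjusted p = 0.00161).

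Genes of DNA replication, which act earlier in the cycle, were lower in 37 of 37 cases, against 25.6% of all genes tested, with a median of -1.37, beside -1.28 for the 52 mitotic genes. They ran from Tk1, thymidine kinase, at -2.16 to Gins4, a subunit of the replicative helicase, at -0.72. Their line medians of -1.20, -2.06, -0.88 and -1.29 in lines #1, #3, #5 and #10 were in the same order as those of the mitotic genes. All lists share the same 8 libraries, so they are no independent support for each other.

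**Figure D5:**
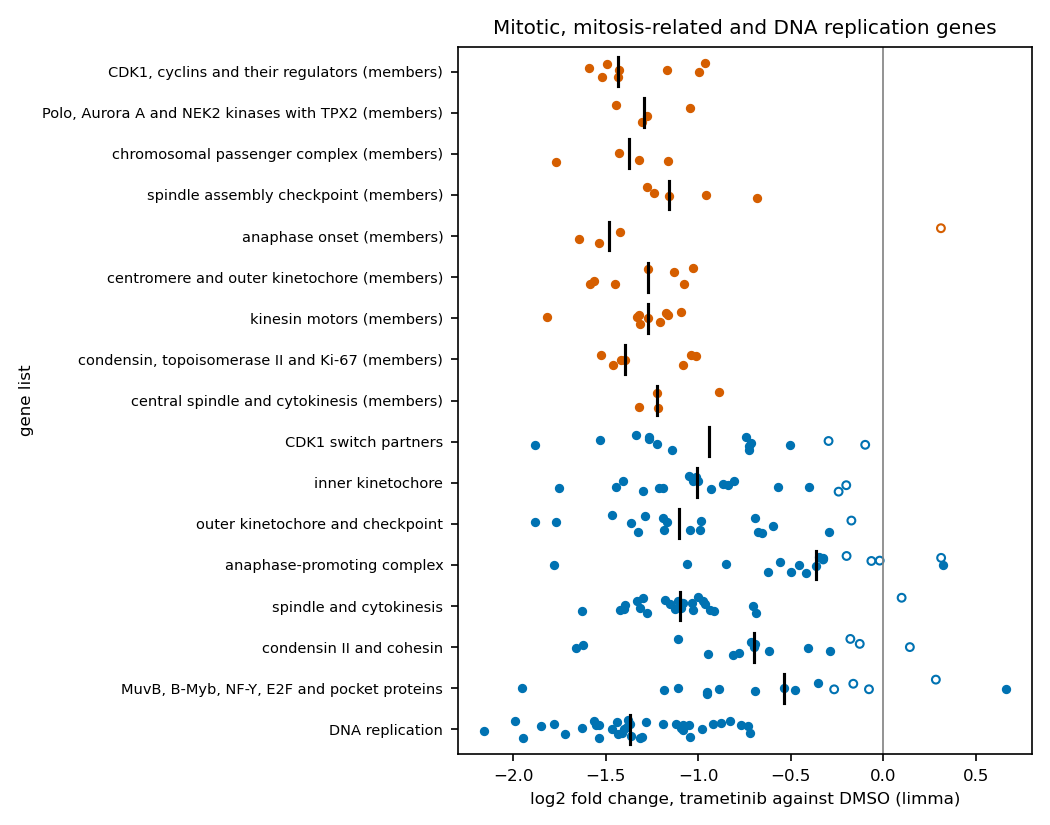
Log2 fold change from limma (horizontal axis) of each gene, by list (rows), for the 52 mitotic genes (orange), other genes of mitosis and DNA replication (blue). Filled points passed an adjusted p under 0.05, open points did not, and bars are medians, from -1.48 for anaphase onset to -0.36 for the anaphase-promoting complex.

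The totals of the 8 libraries were about 30700000 to 36400000 normalized counts, and the steps between low values put their depth at about 29300000 to 45800000 reads. This depth is a rough estimate, since only 51.1% to 67.5% of low values lay within 0.05 of a whole multiple of the step. On that estimate the smallest value of a member, 144 for Spc24 in line #3 with trametinib, corresponded to about 152 reads. Of the epithelial markers, Cdh1 was high in each library, at means of 24588 with DMSO and 24100 with trametinib, while Epcam was listed at 0 in both libraries of lines #1, #5 and #10 and at 10.4 and 3.75 in line #3. The sum of 9 epithelial markers was 221344 to 348950 with DMSO and 113505 to 222101 with trametinib, with 6 lower and 1, Cldn4, higher. The sums of 12 fibroblast markers were 163 to 434 and 453 to 1265, with Col1a1 higher, 1 gene lower and Lum at 0 throughout. Sums of 7 acinar markers were 40.3 to 275 and 25.2 to 153, with Cela1 lower and Cpa1 at 0 throughout. For 7 leukocyte markers they were 61.6 to 166 and 92.0 to 387, with Csf1r higher and Cd3e and Cd52 under 10 in every library. For 6 endothelial markers they were 38.1 to 82.9 and 75.5 to 1779, the last in line #3, with Tek and Vwf higher and Emcn under 10 in every library. In limma 13 markers were called, beside 25.6% lower and 27.3% higher over all genes tested, so these calls are only a description. Without the block 3 of these 13 marker calls held, those on Cldn4, Col1a1 and Tek. The calls on Krt7, Krt8, Krt19, Cela1, Twist2 and Vwf were also lost with at least 1 line left out. The part of these markers in the fall of the mitotic genes was not tested.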

How the data were processed

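The authors deposited 1 table of normalized counts per gene symbol, a signal scaled by them between libraries, for 8 stranded poly(A) libraries. The submitters' processing notes name CASAVA 2.17, Salmon 0.12, DESeq2 1.18 and mm10 without their roles. All 8 columns were used. Values that were whole multiples of a library's step were too few (51.1% to 67.5% within 0.05) to recover reads, so no count test was run. Log2(value + 1) was tested with limma 3.58.1 in R 4.3.3, with the cell line as a block, a trend of variance on level, a minimum mean of 10 and Benjamini-Hochberg adjustment over 15888 genes. Fold changes are on this scale. The labels give both libraries of a line its number, and their deviations from treatment means correlated at 0.63 to 0.72 over genes. The fit was tested on simulated data.

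Members and lists were chosen with earlier results of these data known. Values in every library follow a rule. In each of 9 roles they are given for the genes with the highest mean, the lowest and the highest log2 fold change, with any gene that did not pass, was higher or changed sign between lines. The other members are given mainly by their fold changes. Other lists are given by their lowest and highest genes. Alternatives were other pseudocounts, scalings, filters, variance estimates, no block, a 2-fold minimum and each line left out. Positions are from GENCODE M21 on GRCm38, promoters from RefSeq on GRCm38.p6. The leukocyte marker Adgre1 was not analysed here, and some alleles and genes are not reported here. Python 3.11.15, pandas 2.3.3, numpy 2.4.6 and matplotlib 3.10.9 were used.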

Additional observations from a re-analysis of the deposited data

Results flagged for a closer look

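Within each of the 52 genes, the 4 DMSO values, the 4 trametinib values and the 4 log2 fold changes were examined for a library far from the other 3. Of these 156 groups of values 13 stood out, where chance gives about 1 in 20, or 7.8, if groups are independent. They are not independent, since all genes share the same libraries and the fold changes are made from the same levels. The 2 numbers therefore do not test whether chance was exceeded. Line #3 was the low one in 11 of them. Its log2 fold change lay apart for Ccnb2 (-1.82), Ccna2 (-2.73), Birc5 (-2.93), Cdc20 (-2.24), Ube2c (-2.44), Cenpa (-2.31) and Kif23 (-2.59). Its trametinib level lay apart for Ccna2 (1343 normalized counts), Cdc25b (880.3), Ube2c (849) and Cenpa (1172). The DMSO level of Foxm1 was high in line #5 (8428) and that of Aurka in line #10 (5682). All of these genes were lower without line #3 as well.

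Pttg1 went down in line #1 (log2 fold change -0.30) and up in the other lines (0.44 in line #3, 0.69 in line #5 and 0.42 in line #10). This difference between lines was not tested, since each line had 1 library per treatment.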

How the results depend on the processing

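Of 15 alternatives, none reversed the direction of any of the 52 genes, and 47 of the 51 calls held in every alternative except the minimum change of 2-fold. With that minimum 1 of the 52 genes was lower (Kif23), as were 1 other mitotic gene and 3 DNA replication genes, no other mitotic gene was higher, and over all genes 176 were lower and 557 higher. The block for the cell line bore on 4 of the 52 genes. Without the pairing, 47 were lower, with Bub3, Kif4, Kif20a and Prc1 lost (adjusted p = 0.0566, 0.0505, 0.0564 and 0.104 in limma), 1 other mitotic gene was higher, and over all genes 2347 were lower and 2205 higher. Prc1 was also lost with eBayes without trend (adjusted p = 0.0532 in limma). Leaving out each line gave 50 to 51 of the 52 genes lower, 0 to 1 higher (Pttg1 without line #1), 1 to 3 other mitotic genes higher, and a median log2 fold change between -1.45 and -1.0. The number of other mitotic genes that were higher, 2, became 4 with equal library totals or quantile normalization and 1 with centring on the median or eBayes without trend. The cause of these shifts was not tested. Equal totals moved the median of all genes tested from 0.07 to 0.20 and quantile normalization moved it to -0.03. None of the 52 genes was near the filter of 10, as their lowest mean was 558 normalized counts.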

Other observations

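Genes that load CENP-A at centromeres, picked after their values were seen, moved less than Cenpa itself. Hjurp, the chaperone of CENP-A, stood at 9398, 17879.6, 9043 and 13092 normalized counts in lines #1, #3, #5 and #10 with DMSO and at 6587, 9481, 7749 and 8541 with trametinib, changing by -0.57 on the log2 scale (SE 0.12, adjusted p = 0.00794 in limma), beside -1.45 for Cenpa. Of the MIS18 complex, which primes the centromere, Mis18a changed by -0.81 and Oip5 by -0.93. Hjurp, Mis18a and Oip5 were each lower in limma, but the calls on Hjurp and Mis18a were lost without the block (adjusted p = 0.0980 and 0.0769 in limma), that on Oip5 with eBayes without trend and without line #1 or line #10, and all 3 with the minimum change of 2-fold. The difference from Cenpa was not tested.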
